A study of Homo sapiens with 12 samples.

Results

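ACTA2, TAGLN, TAGLN2, CNN2, CNN3, TPM1, TPM2, MYL9, CALD1 and ACTN1 encode actin-binding, actin-bundling and myosin-regulating proteins of contractile cells and stress fibres. They were chosen by symbol, as 10 of the 64252 gene IDs counted in each library, and all 10 were among the 15094 genes that passed the filter on low counts. MDA-MB-231 cells, an established line from a triple-negative breast carcinoma of mesenchymal-like form, gave the poly(A)-selected RNA. Cells grown in serum were transfected by lipofection with a plasmid carrying Dicer with mutation 1, Dicer with mutation 2, Dicer with mutation 3 or wild-type Dicer. Each of these 4 groups had 3 libraries. Dicer releases mature microRNAs from their hairpin precursors. The labels number the mutations without naming them. Replicate numbers of the mutant libraries were given here in sample order, since the labels hold none, and do not pair libraries across groups. All groups received a Dicer plasmid, so no group shows the level without one, and the cells still carried their own DICER1 gene. The labels do not state whether each library is a culture of its own. The p-values therefore cover the spread among these 12 libraries and nothing wider, and that spread may be technical.

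Stress fibres are bundles of actin filaments that pull when non-muscle myosin II slides along them. Tropomyosins lie along the filament and decide which proteins reach it, alpha-actinin ties filaments together, and calponins, caldesmon and transgelins bind the filament and tune contraction. The myosin regulatory light chain switches the motor on when it is phosphorylated by myosin light chain kinase. Many genes of this group are targets of the transcription factor SRF, working with the cofactors MRTFA and MRTFB, and are widely used as markers of smooth muscle cells and myofibroblasts. Carcinoma cells that have taken on mesenchymal features also express several of them.

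Several microRNAs are known for their links to this gene group. The muscle microRNAs miR-1 and miR-133a have been reported to target TAGLN2 in carcinoma cells, miR-145 is abundant in smooth muscle, and miR-21 has been reported to target TPM1 in breast cancer cells. Their mature sequences (RefSeq, GRCh38.p14, 5′ to 3′) are shown with the seed, bases 2 to 8, in capitals. None of the 4 shares a seed with another.
hsa-miR-1-3p: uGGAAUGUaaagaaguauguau
hsa-miR-133a-3p: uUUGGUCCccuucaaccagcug
hsa-miR-145-5p: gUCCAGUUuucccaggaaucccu
hsa-miR-21-5p: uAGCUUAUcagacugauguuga

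The 3′ UTR of 1 principal transcript of each member (GENCODE v29, GRCh38) was searched for the complement of each seed. TAGLN2, whose 3′ UTR has 693 bases, held matches to 3 of the 4 seeds, the most of any member. They are shown because this gene had the highest level of the 10 per length, with the bases that pair with the seed in capitals. The miR-145 match and the first miR-133a match overlap.
TAGLN2, miR-1, chr1:159918721-159918743, minus strand: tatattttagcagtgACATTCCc
TAGLN2, miR-1, chr1:159918607-159918629, minus strand: cccatgcttactaatACATTCCc
TAGLN2, miR-133a, chr1:159918578-159918600, minus strand: atagccatcaaaactGGACCAAc
TAGLN2, miR-133a, chr1:159918550-159918572, minus strand: tcttcctttcccctgGGACCAAa
TAGLN2, miR-145, chr1:159918582-159918604, minus strand: ccccatagccatcaaAACTGGAc
Among the other members, CNN3 held 1 match to miR-1, CNN2 and MYL9 1 each to miR-133a, and CALD1 1 to miR-21. The share of 18930 genes whose 3′ UTR holds a match was 10.7% for miR-1, 7.04% for miR-133a, 11.7% for miR-145 and 7.71% for miR-21. The TPM1 3′ UTR searched had 114 bases and held none of these letters. A match is a description of the sequence, and microRNA levels were not analysed here.

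Library totals ran from 13507341 to 17078273 counts. Levels are CPM, counts scaled to a common library size that was adjusted by the TMM method, a trimmed mean over genes. Wild-type replicate 1 stood apart from wild-type replicates 2 and 3, with 150 and 143 times the sampling variance (chi-square divided by its degrees of freedom) in its pairs, against 1.26 for the pair of replicates 2 and 3 and 1.3 to 3.52 within the mutant groups. Over the 15094 genes its levels were nearer to those of the mutation 2 libraries (Spearman correlation 0.973 to 0.974) than to those of wild-type replicates 2 and 3 (0.945 with each), and the correlation was 0.946 to 0.947 with mutation 3 and 0.927 with mutation 1. Mutation 2 libraries were about as near to wild-type replicates 2 and 3, at 0.944 to 0.945. Wild-type replicate 1 thus goes against its label by this measure, though not in every gene. Its levels of CALD1 and ACTN1 lay near those of the other wild-type libraries, whereas TAGLN2, MYL9, TPM1, TPM2 and TAGLN lay far off. The library was kept under that label, and the doubt bears on every comparison with wild type. Mitochondrial mRNAs made up 1.27 to 1.36% of counts with mutation 1, 4.48 to 5.57% with mutation 2 and 4.81 to 5.05% with mutation 3, against 1.34% in that wild-type library and 5.04 to 5.09% in the other 2. All groups share 1 estimate of spread in the fit, so this library also bears on comparisons between mutants. The SE of TAGLN2 for mutation 1 over mutation 2 was 0.03 without wild-type replicate 1 and 0.22 with it. Results of the 10 genes against wild type are therefore given with and without wild-type replicate 1, and the part of the mitochondrial share in them was not tested. DICER1 itself averaged 43.7 ± 1.52 CPM with mutation 1, 45.3 ± 0.731 with mutation 2, 39.4 ± 0.638 with mutation 3 and 40 ± 11 with wild type (SD, n = 3 each), which does not separate plasmid from genomic transcripts. Wild-type replicates 1, 2 and 3 had 27.4, 45.2 and 47.4 CPM of DICER1, and replicate 1 had the lowest level of all libraries.

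**Figure D1:**
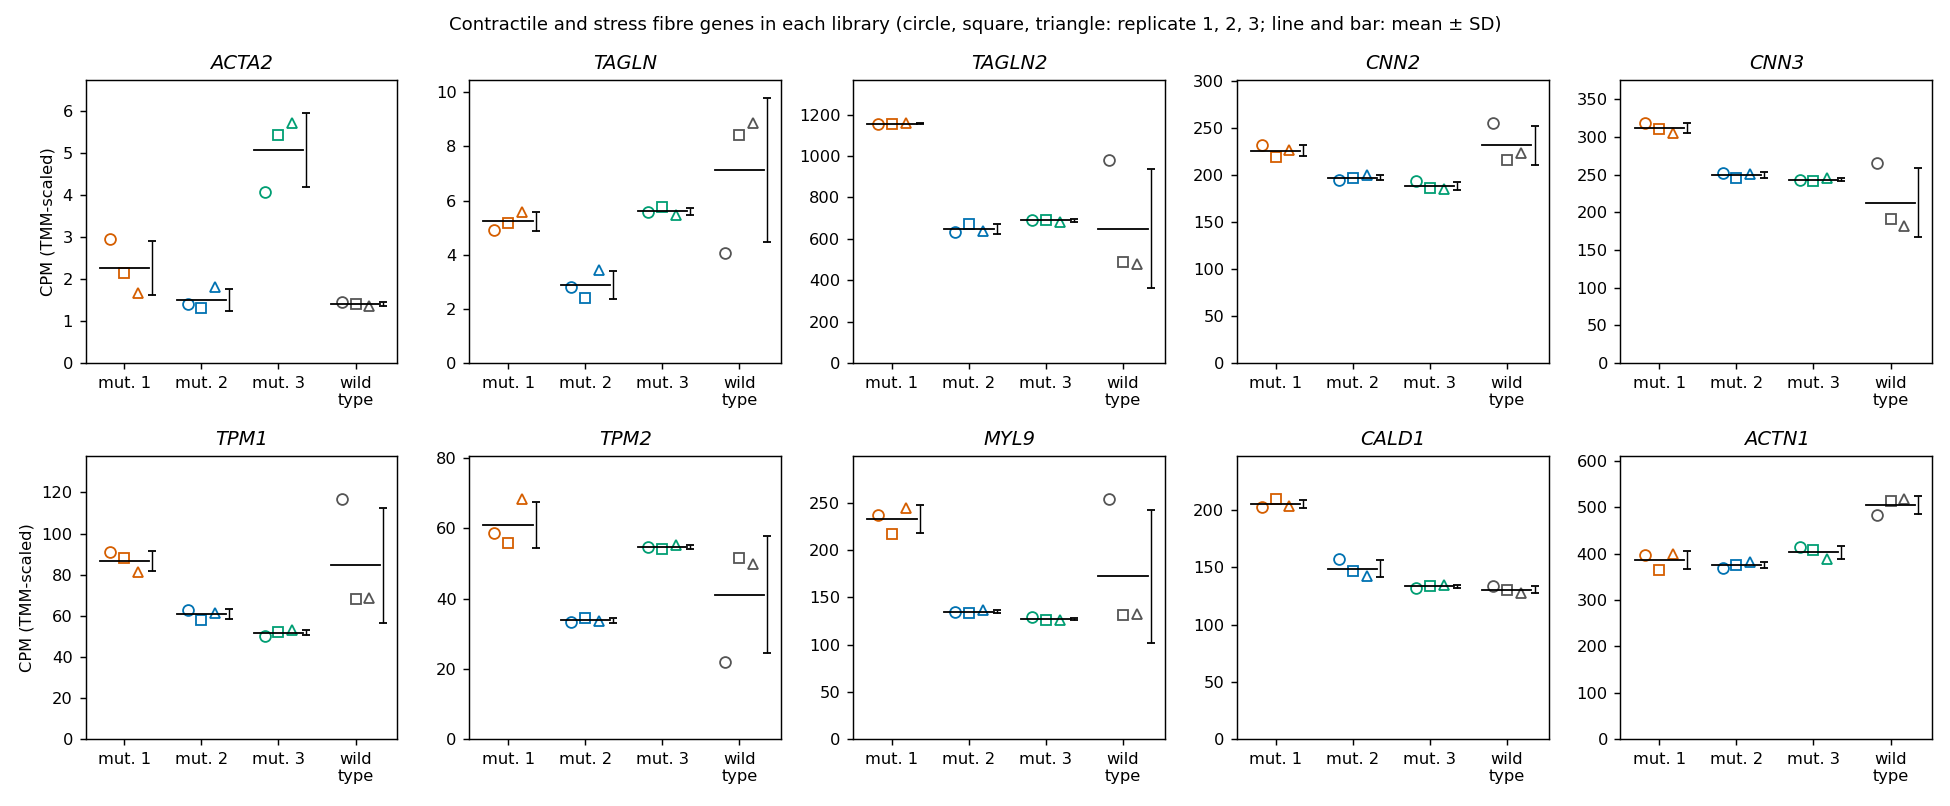
Level of each of the 10 genes in CPM (vertical axis, from 0) in each library, by group (mutation 1, mutation 2, mutation 3, wild type). Symbols mark replicates 1, 2 and 3, and lines with bars give the mean ± SD of 3 libraries. TAGLN2, MYL9, TPM1, TPM2 and TAGLN show wild-type replicate 1 far from the other wild-type libraries, whereas CALD1, ACTN1 and ACTA2 do not.

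Per kilobase of exon, TAGLN2 had the highest level of the 10 genes in every group, at 465 ± 1.08 CPM per kilobase with mutation 1, 260.1 ± 9.02 with mutation 2, 276.9 ± 2.19 with mutation 3 and 261.0 ± 115 with wild type (SD, n = 3 each). CNN3 came next with mutations 1, 2 and 3 and with wild type, at 109.8, 87.82, 85.82 and 75.07 CPM per kilobase. ACTA2 was the lowest, at 0.76, 0.51 and 1.70 CPM per kilobase with mutations 1, 2 and 3 and 0.47 with wild type. ACTA2 and TAGLN, both used as smooth muscle markers, thus lay far under TAGLN2, the broadly expressed relative of TAGLN, on this scale.

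The 2 lowest genes come first. ACTA2 (ENSG00000107796, chromosome 10, 88935074 to 88991339, minus strand) encodes smooth muscle alpha-actin, the actin of smooth muscle and myofibroblasts. Mutation 1 libraries had 2.95, 2.15 and 1.68 CPM, and mutation 2 libraries had 1.41, 1.30 and 1.81 CPM. Its level was 4.07, 5.42 and 5.71 CPM in the mutation 3 libraries, against 1.44, 1.40 and 1.36 CPM in the wild-type libraries. Mutation 3 therefore lay above every other library, with no overlap. ACTA2 rose 3.60-fold with mutation 3 over wild type (log2 fold change 1.85, SE 0.24, adjusted p = 6.37e-05), and by 1.87 on the log2 scale without wild-type replicate 1. It was also higher with mutation 3 than with mutation 2 (1.74, SE 0.23, adjusted p = 0.000106), and lower with mutation 1 than with mutation 3 (-1.16, SE 0.23, adjusted p = 0.00205).

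ACTA2 with mutation 1 passed the test over wild type at 0.69 (SE 0.25, adjusted p = 0.0266), but this rests on few reads. Without wild-type replicate 2, wild-type replicate 3 or mutation 1 replicate 1 the values were 0.69, 0.67 and 0.46, with adjusted p of 0.0619, 0.0663 and 0.124. The mutation 2 value over wild type was 0.11 (adjusted p = 0.763). Leaving out wild-type replicate 1 gave 0.73 for mutation 1 (adjusted p = 0.0121) and 0.14 for mutation 2 (adjusted p = 0.681). All 12 libraries together hold 460 reads of ACTA2. Counting took no account of strand, and exons of ACTA2 share 380 bases with FAS and 516 with ACTA2-AS1 on the opposite strand, where reads cannot be told apart. FAS had 930 counts in all libraries.

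TAGLN (ENSG00000149591, chromosome 11, 117199321 to 117204782, plus strand) encodes transgelin, also called SM22, an early marker of smooth muscle. With mutation 1 its level was 4.92, 5.17 and 5.59 CPM, and with mutation 3 it was 5.57, 5.75 and 5.48 CPM. With mutation 2 it was 2.82, 2.40 and 3.44 CPM, against 4.07, 8.44 and 8.86 CPM with wild type. Mutation 2 was thus below every other library, and wild-type replicates 2 and 3 were above every other library. TAGLN fell with mutation 2 by 1.30 on the log2 scale against wild type (SE 0.26, adjusted p = 0.00303). The values with mutation 1 and mutation 3 were -0.45 (adjusted p = 0.134) and -0.35 (adjusted p = 0.252). TAGLN fell with all of the mutations once wild-type replicate 1 was left out, at -0.72, -1.56 and -0.62 for mutations 1, 2 and 3.

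Between mutants, TAGLN was higher with mutation 1 than with mutation 2 (0.85, SE 0.27, adjusted p = 0.0154) and higher with mutation 3 than with mutation 2 (0.95, SE 0.26, adjusted p = 0.0108). The first of these calls was lost without mutation 2 replicate 2 (0.73, adjusted p = 0.0588). TAGLN had 956 counts over all libraries. Its exons share 446 bases with PCSK7 on the opposite strand, a gene with 5252 counts.

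TAGLN2 (ENSG00000158710, chromosome 1, 159918107 to 159925732, minus strand) encodes transgelin-2, a relative found outside smooth muscle that binds and stabilises actin filaments. Mutation 2 libraries had 632, 673 and 636 CPM, and mutation 3 libraries had 691, 692 and 682 CPM. Mutation 1 libraries had 1155, 1154 and 1159 CPM, against 980, 487 and 480 CPM in wild-type libraries. Every mutation 1 library was above every other library, and the mutation 2 and mutation 3 libraries lay under wild-type replicate 1 and over the other wild-type libraries.

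TAGLN2 rose 1.78-fold with mutation 1 over wild type (log2 fold change 0.83, SE 0.22, adjusted p = 0.00616), and by 1.26 without wild-type replicate 1. The values with mutation 2 and mutation 3 over wild type were -0.005 (adjusted p = 0.99) and 0.09 (adjusted p = 0.756) with all libraries. Leaving out wild-type replicate 1 made them 0.43 (adjusted p = 1.15e-27) and 0.52 (adjusted p = 5.03e-35), so for this gene that library decides whether mutations 2 and 3 differed from wild type, and turns the sign for mutation 2. Mutation 1 was higher than mutation 2 (0.84, SE 0.22, adjusted p = 0.00636) and than mutation 3 (0.75, SE 0.22, adjusted p = 0.0189). The call against mutation 3 was lost on leaving out any 1 library of either group, at 0.76 to 0.77 with adjusted p of 0.0566 to 0.0682.

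The calponins are actin-binding proteins that restrain the myosin motor. CNN2 (ENSG00000064666, chromosome 19, 1026581 to 1039068, plus strand) and CNN3 (ENSG00000117519, chromosome 1, 94896949 to 94927278, minus strand) are the forms of non-muscle cells. CNN1, the smooth muscle calponin, was at most 0.394 CPM in any library. CNN2 has 11 annotated processed pseudogenes, which had 0 to 55 counts over all libraries, so its level is uncertain where reads fit several places.

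The groups differed least in CNN2. With mutation 1 the level was 232, 219 and 226 CPM. It was 194, 197 and 200 CPM with mutation 2 and 193, 186 and 185 CPM with mutation 3, against 255, 215 and 223 CPM with wild type. Mutation 1 lay within the wild-type range, and mutations 2 and 3 lay below it. CNN2 fell with mutation 2 (-0.23, SE 0.07, adjusted p = 0.0175) and with mutation 3 (-0.30, SE 0.07, adjusted p = 0.00244). The value with mutation 1 was -0.04 (adjusted p = 0.643). Leaving out wild-type replicate 1 gave -0.15, -0.21 and 0.05 for mutations 2, 3 and 1, and CNN2 fell with mutations 2 and 3 there too. The mutation 2 call was lost on leaving out any 1 mutation 2 or mutation 3 library or mutation 1 replicate 3 (-0.22 to -0.24, adjusted p of 0.0505 to 0.0667).

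Between mutants, CNN2 was higher with mutation 1 than with mutation 2 (0.20, SE 0.07, adjusted p = 0.0207) and than with mutation 3 (0.26, SE 0.07, adjusted p = 0.0078). The first value turned to -0.01 (adjusted p = 0.872) when libraries were scaled by their totals alone. The second lost its call under that scaling (0.17, adjusted p = 0.0756) and without mutation 3 replicate 3 (0.26, adjusted p = 0.0524). The first also lost its call on leaving out any of 8 libraries in turn (0.18 to 0.23, adjusted p of 0.0504 to 0.0998).

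CNN3 was higher with every mutation than in wild-type replicates 2 and 3. Mutation 1 libraries had 319, 311 and 305 CPM, mutation 2 libraries 252, 245 and 250 CPM and mutation 3 libraries 243, 242 and 245 CPM. Wild-type libraries had 266, 191 and 182 CPM, so replicate 1 lay above mutations 2 and 3 and replicates 2 and 3 below them. CNN3 rose 1.46-fold with mutation 1 over wild type (0.55, SE 0.12, adjusted p = 0.00149). Mutation 2 and mutation 3 gave 0.23 (adjusted p = 0.148) and 0.19 (adjusted p = 0.171). CNN3 rose with all of them once that replicate was left out, by 0.74, 0.42 and 0.39 for mutations 1, 2 and 3. It was higher with mutation 1 than with mutation 2 (0.32, adjusted p = 0.0293) and mutation 3 (0.36, adjusted p = 0.0289). The first call was lost on leaving out any 1 mutant library and the other on leaving out any 1 mutation 1 or mutation 3 library, at 0.31 to 0.39 with adjusted p of 0.0602 to 0.101. Under library totals alone both were lost, at 0.11 (adjusted p = 0.438) and 0.26 (adjusted p = 0.109).

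The promoter of CNN2 carried a CArG box, the motif that SRF binds. The motif was searched as CCWWWWWWGG, where W is A or T. Forms with a mismatch were not counted, so a window without the exact form may still hold them. Both strands were searched in 19 RefSeq promoter windows of 8 members (GRCh38.p14, 250 bases before to 50 after a start). TAGLN and MYL9 had no promoter sequence to search. The exact form was found in 2 windows, 1 of CNN2 and 1 of the 4 of ACTN1. Among all 35116 such promoters, 1.29% hold it. The motif CATTCC, bound by TEAD factors and not overlapping the CArG boxes, was found on either strand in 5 of the 19 windows, against 14% of all promoters. Both windows with a CArG box are shown, with it in capitals. It starts 89 bases before the CNN2 start and 171 bases before the ACTN1 start.
CNN2, chr19:1026358-1026657, plus strand: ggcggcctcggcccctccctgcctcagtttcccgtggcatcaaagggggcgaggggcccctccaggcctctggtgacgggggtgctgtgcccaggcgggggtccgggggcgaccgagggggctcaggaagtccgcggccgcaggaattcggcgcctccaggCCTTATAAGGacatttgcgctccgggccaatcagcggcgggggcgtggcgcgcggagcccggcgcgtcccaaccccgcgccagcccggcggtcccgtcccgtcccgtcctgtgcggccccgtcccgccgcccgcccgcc
ACTN1, chr14:68977517-68977816, minus strand: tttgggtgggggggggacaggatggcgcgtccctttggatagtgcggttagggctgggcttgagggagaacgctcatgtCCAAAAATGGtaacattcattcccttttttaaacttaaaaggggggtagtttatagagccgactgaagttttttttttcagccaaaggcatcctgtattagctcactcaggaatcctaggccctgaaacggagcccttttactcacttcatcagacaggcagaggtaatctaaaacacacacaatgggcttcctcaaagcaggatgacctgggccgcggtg
CNN2 fell with mutations 2 and 3, and ACTN1 fell with all of the mutations. TPM1, whose window holds no exact CArG box, fell with mutation 3, and TAGLN, which was not searched, fell with mutation 2. The part of the motif in these changes was not tested. The counts per gene do not show which start was used.

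Tropomyosins form the cable that lines the actin filament. TPM1 (ENSG00000140416, chromosome 15, 63042632 to 63071915, plus strand) and TPM2 (ENSG00000198467, chromosome 9, 35681992 to 35690121, minus strand) each make several isoforms, which counts per gene do not separate. TPM1 stood at 91.1, 87.9 and 81.5 CPM with mutation 1. It was at 62.7, 58.1 and 61.4 CPM with mutation 2 and 50.4, 52.0 and 52.9 CPM with mutation 3, against 117, 68.0 and 68.9 CPM with wild type. Mutation 1 lay under wild-type replicate 1 and over the other wild-type libraries, and mutations 2 and 3 were below every wild-type library.

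TPM1 fell with mutation 3 against wild type (-0.71, SE 0.17, adjusted p = 0.00471). Mutation 2 gave -0.48 (SE 0.17, adjusted p = 0.0501) and mutation 1 gave 0.04 (adjusted p = 0.846). With wild-type replicates 2 and 3 alone, TPM1 rose with mutation 1 (0.35, adjusted p = 1.46e-10). It fell with mutations 2 and 3 there, by 0.17 and 0.40, with adjusted p values of 0.00252 and 1.24e-11. Mutation 1 was higher than mutation 3 (0.75, SE 0.17, adjusted p = 0.00532) and mutation 2 (0.52, SE 0.17, adjusted p = 0.0212). The call against mutation 2 was lost without mutation 1 replicate 1 or 2 or mutation 2 replicate 2 or 3 (0.48 to 0.52, adjusted p of 0.0534 to 0.077). Library totals alone ended it as well (0.31, adjusted p = 0.154), as did a fit without the filter on low counts (0.51, adjusted p = 0.0562).

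TPM2 did the reverse of TPM1 in wild-type replicate 1, where it was low. Mutation 1 libraries had 58.5, 55.9 and 68.2 CPM, mutation 2 libraries 33.4, 34.6 and 33.6 CPM and mutation 3 libraries 54.8, 54.2 and 55.3 CPM, against 21.9, 51.4 and 49.9 CPM for wild type. Mutations 1 and 3 were above every wild-type library. With all libraries, none of the values over wild type passed edgeR's test, at 0.56 for mutation 1 (SE 0.24, adjusted p = 0.0579), -0.28 for mutation 2 and 0.41 for mutation 3 (adjusted p = 0.393 and 0.166). Against wild-type replicates 2 and 3 alone they were 0.26, -0.58 and 0.11, with adjusted p values of 1.75e-05, 7.72e-16 and 0.0623. Without wild-type replicate 2 or 3 mutation 1 also passed (0.75 and 0.72, adjusted p = 0.0263 and 0.036). On all libraries it passed in DESeq2 (0.60, adjusted p = 0.0344), in limma-voom (0.65, adjusted p = 0.0373), with RLE scaling (0.60, adjusted p = 0.0436) and with a stricter filter (0.57, adjusted p = 0.0494).

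Mutation 2 had the lowest TPM2 of the mutants. Mutation 1 was higher than mutation 2 (0.85, SE 0.24, adjusted p = 0.0103), and mutation 3 was higher than mutation 2 (0.69, SE 0.24, adjusted p = 0.0335). Leaving out any 1 mutation 2 or mutation 3 library ended the second call (0.68 to 0.71, adjusted p of 0.0619 to 0.0837). Library totals alone and a fit without the filter on low counts ended it too (0.58 and 0.69, adjusted p = 0.0608 and 0.1).

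MYL9 (ENSG00000101335, chromosome 20, 36541484 to 36551447, plus strand) encodes a regulatory light chain of myosin II, the subunit whose phosphorylation sets off contraction. Mutation 1 libraries had 237, 217 and 245 CPM, mutation 2 libraries 135, 134 and 137 CPM and mutation 3 libraries 129, 126 and 127 CPM. The wild-type libraries had 254, 132 and 132 CPM, so that replicate 1 lay above every mutation 1 library while replicates 2 and 3 lay beside mutations 2 and 3. With all libraries, no MYL9 value over wild type passed edgeR's test, at 0.43 for mutation 1 (SE 0.21, adjusted p = 0.0823), -0.35 for mutation 2 (adjusted p = 0.202) and -0.44 for mutation 3 (adjusted p = 0.0878). MYL9 without wild-type replicate 1 rose with mutation 1 (0.82, adjusted p = 7.31e-45), and the values with mutations 2 and 3 were 0.04 and -0.05. Without wild-type replicate 2 or 3, mutation 3 gave -0.60 in both fits (adjusted p = 0.0261 and 0.0278). On all libraries limma-voom called MYL9 higher with mutation 1 (0.50, adjusted p = 0.0407), and scaling by library totals alone called it lower with mutation 3 (-0.57, adjusted p = 0.0403).

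Mutation 1 was set apart from the other mutants by this gene. MYL9 was 1.72-fold higher with mutation 1 than with mutation 2 (0.79, SE 0.21, adjusted p = 0.0062) and 1.83-fold higher than with mutation 3 (0.87, SE 0.21, adjusted p = 0.00617). Its value with mutation 3 over mutation 2 was -0.09 (adjusted p = 0.749).

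CALD1 (ENSG00000122786, chromosome 7, 134744252 to 134970728, plus strand) encodes caldesmon, which blocks myosin from the actin filament until it is released by calmodulin or phosphorylation. It was the member with the smallest spread among wild-type libraries for its level. Mutation 2 libraries had 157, 146 and 143 CPM and mutation 3 libraries had 132, 134 and 134 CPM. Mutation 1 libraries had 202, 209 and 203 CPM, against 134, 130 and 128 CPM with wild type. Mutation 1 lay above every other library, mutation 2 above every mutation 3 and wild-type library, and mutation 3 overlapped wild type. CALD1 rose 1.57-fold with mutation 1 (0.65, SE 0.05, adjusted p = 1.06e-06) and 1.14-fold with mutation 2 (0.19, SE 0.05, adjusted p = 0.0146), and mutation 3 gave 0.03 (adjusted p = 0.611). Against wild-type replicates 2 and 3 alone they were 0.68, 0.21 and 0.06. The call with mutation 2 was lost without wild-type replicate 3 (0.17, adjusted p = 0.056) or mutation 2 replicate 1 (0.15, adjusted p = 0.0665).

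Between mutants, CALD1 was higher with mutation 1 than with mutation 2 (0.46, SE 0.05, adjusted p = 1.49e-05) and mutation 3 (0.62, SE 0.05, adjusted p = 6.5e-06). It was lower with mutation 3 than with mutation 2 (-0.16, SE 0.05, adjusted p = 0.024), a call that ended on leaving out mutation 2 replicate 1 or 2 or any 1 mutation 3 library (-0.12 to -0.17, adjusted p of 0.0524 to 0.112).

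ACTN1 (ENSG00000072110, chromosome 14, 68874143 to 68979440, minus strand) encodes alpha-actinin 1, the crosslinker of stress fibres and focal adhesions. It was the only member that fell with all of the mutations in the fit of all libraries. Its level was 396, 365 and 399 CPM with mutation 1, 369, 375 and 382 CPM with mutation 2 and 415, 407 and 388 CPM with mutation 3, against 483, 514 and 517 CPM with wild type. All mutant libraries were below all wild-type libraries, replicate 1 included. The log2 fold changes were -0.38, -0.43 and -0.32 for mutations 1, 2 and 3, each with an SE of 0.06, and the adjusted p values were 0.000108, 0.000239 and 0.00051. They were -0.41, -0.45 and -0.35 without wild-type replicate 1. The 3 comparisons share their wild-type libraries. Between mutants no ACTN1 value passed edgeR's test on all libraries, at 0.04, -0.06 and 0.10 for mutation 1 over mutation 2, mutation 1 over mutation 3 and mutation 3 over mutation 2. The first turned to -0.17 (adjusted p = 0.0164) under library totals alone. ACTN1 was lower with mutation 1 than with mutation 3 without wild-type replicate 1 (-0.06, adjusted p = 0.0486), with only those groups in the fit (-0.07, adjusted p = 0.0333) and under library totals (-0.15, adjusted p = 0.0376). It was higher with mutation 3 than with mutation 2 without wild-type replicate 1 (0.10, adjusted p = 0.000892) and with only those groups in the fit (0.11, adjusted p = 0.000313).

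Taken by comparison with wild type, the 10 genes moved in both directions. With mutation 1, 4 of 10 rose (ACTA2, TAGLN2, CNN3, CALD1) and 1 fell (ACTN1), where 32.5% of all genes tested rose and 36.5% fell. The median of the 10 log2 fold changes was 0.49, against -0.04 over all genes. With mutation 2, 1 of 10 rose (CALD1) and 3 fell (TAGLN, CNN2, ACTN1), where 16.9% of all genes rose and 20.1% fell, and the medians were -0.26 for the 10 and -0.01 for all genes. With mutation 3, 1 of 10 rose (ACTA2) and 3 fell (CNN2, TPM1, ACTN1), where 28.1% of all genes rose and 31.2% fell, and the medians were -0.13 and -0.01. In either direction, 5, 4 and 4 of 10 were called with mutations 1, 2 and 3, against 69%, 37% and 59.3% of all genes. The share of members was the larger one with mutation 2 alone, and 10 genes are too few to read more from these splits. Libraries of the mutant and of wild type held separate ranges for 6 members with mutation 1, 5 with mutation 2 and 6 with mutation 3, where this was so for 68%, 42.6% and 61% of all genes. Under library totals alone, mutation 1 gave 3 higher and 3 lower, in place of 4 and 1.

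**Figure D2:**
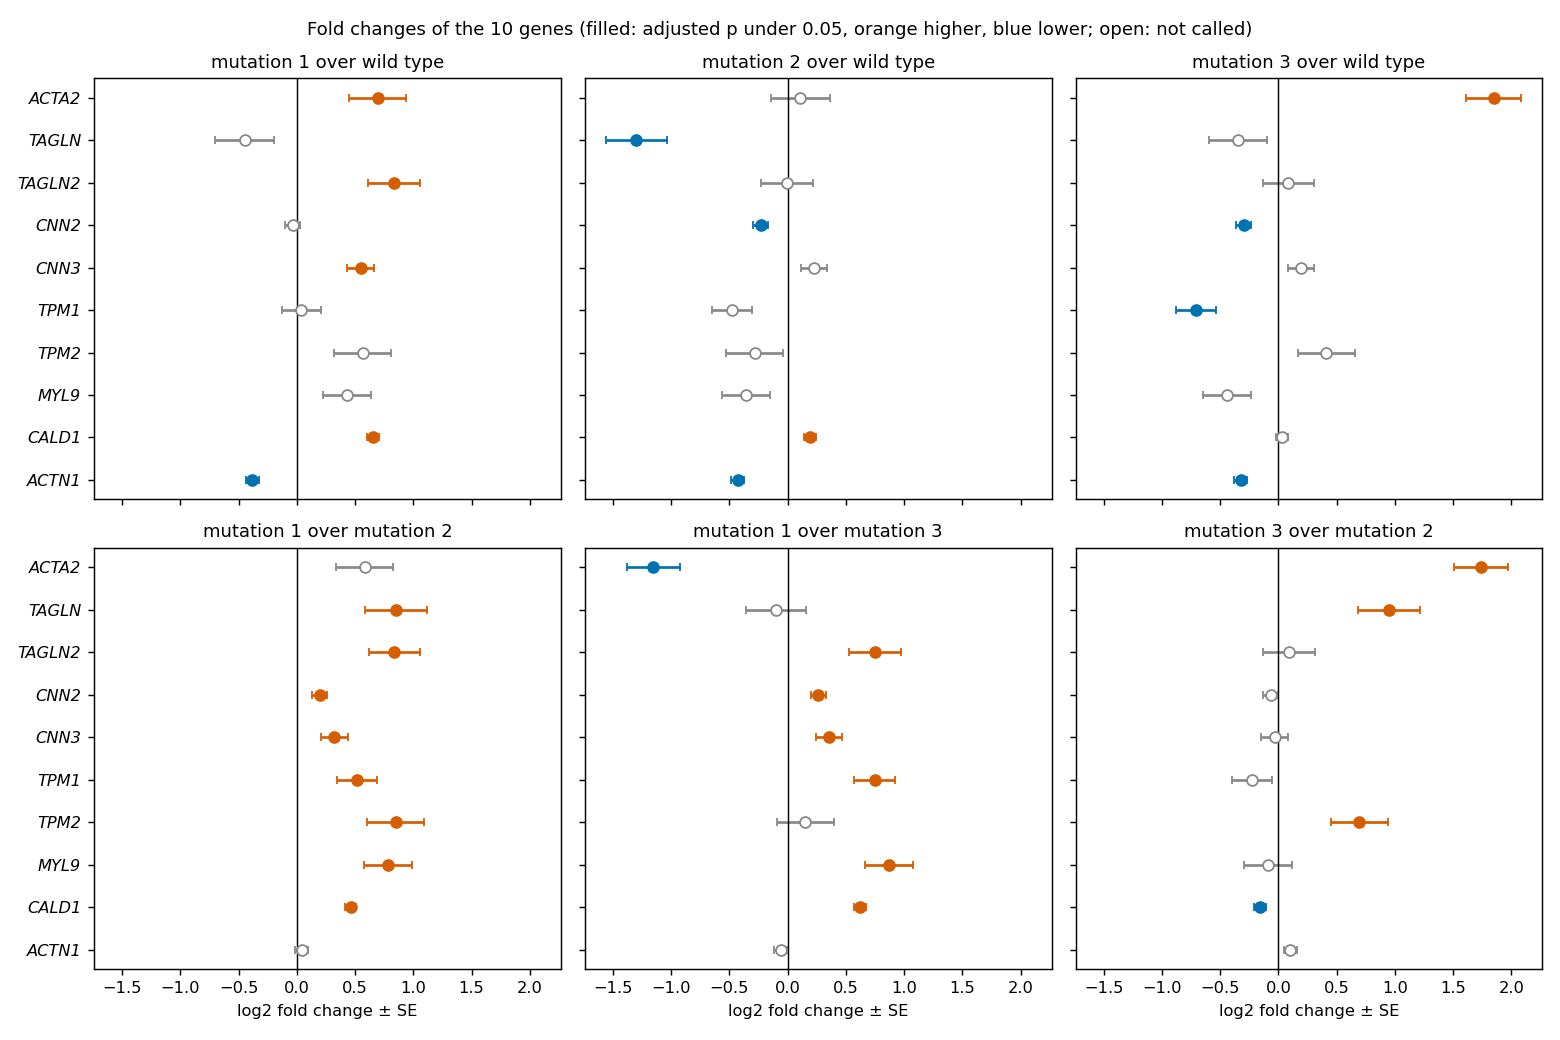
Log2 fold change ± SE (horizontal axis) of each of the 10 genes (rows) in the 6 comparisons of the groups, from 1 fit of all 12 libraries. Filled points passed an adjusted p of 0.05, orange for higher and blue for lower, and open points did not. For mutation 1 over mutation 2 all 10 points lie right of 0, and ACTN1 lies left of 0 in each comparison with wild type.

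Leaving out wild-type replicate 1 made the counts larger for the members and for all genes alike. With mutation 1, 7 of 10 then rose and 2 fell, where 40.2% of all genes rose and 42.5% fell. Mutation 2 gave 3 that rose and 5 that fell, where 33% and 34.9% of all genes did. Mutation 3 gave 3 that rose and 4 that fell, where 38.2% and 38.8% did. TAGLN2, CNN3 and CALD1 are the 3 that then rose with mutation 2, and TAGLN, CNN2, TPM1, TPM2 and ACTN1 the 5 that fell.

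**Figure D3:**
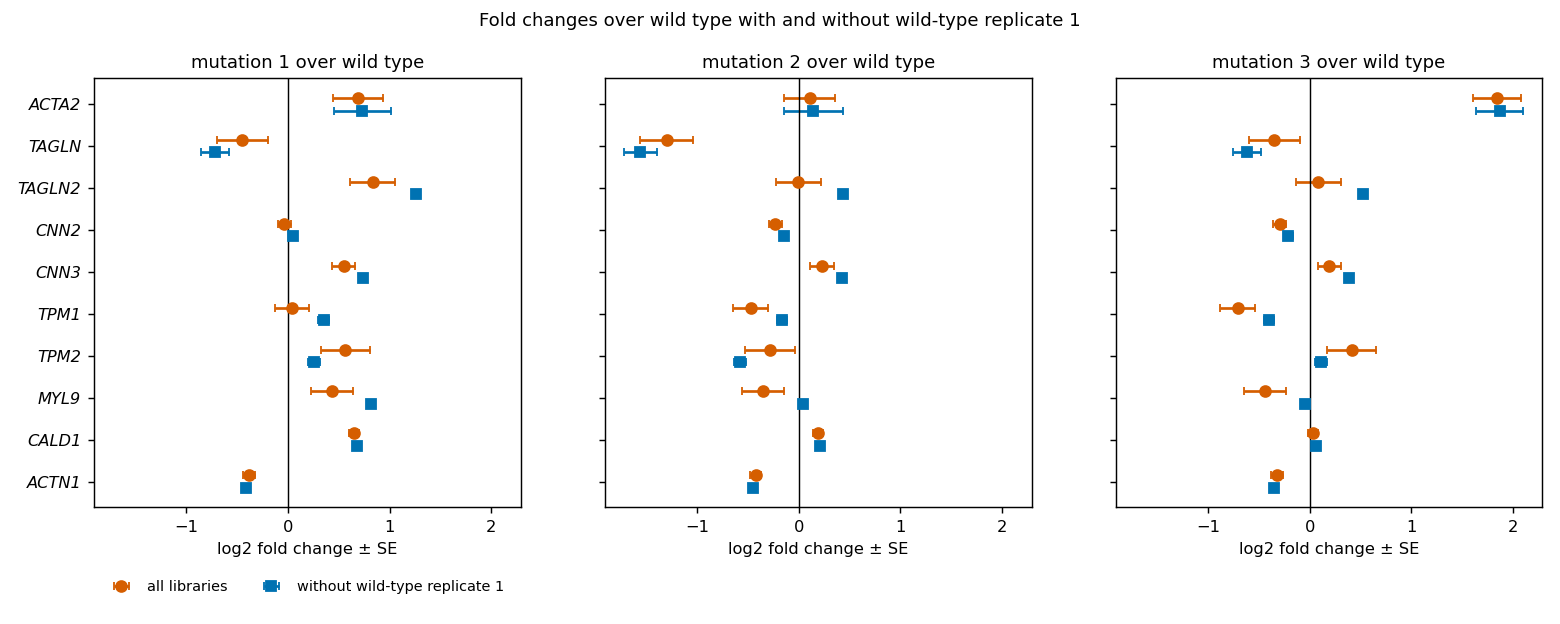
Log2 fold change ± SE (horizontal axis) of the 10 genes (rows) with mutation 1, 2 and 3 over wild type, from all libraries (orange circles) and without wild-type replicate 1 (blue squares). TAGLN2 with mutation 2 lies at -0.005 with all libraries and at 0.43 without that one, and ACTA2, CALD1 and ACTN1 stay almost where they were.

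The shift in wild-type replicate 1 was not one of overall level. Compared with the mean of wild-type replicates 2 and 3, this library was 2.03-fold higher in TAGLN2, 1.92-fold in MYL9, 1.7-fold in TPM1, 1.43-fold in CNN3 and 1.16-fold in CNN2. It was 2.31-fold lower in TPM2 and 2.13-fold lower in TAGLN. ACTA2, CALD1 and ACTN1 had ratios of 1.05, 1.04 and 0.938. In the fit without it, mutation 1 over wild type was called in the same direction as this shift for TAGLN2, MYL9, TPM1, CNN3 and TAGLN, and in the opposite one for TPM2. Mutation 2 over wild type was called in the same direction as the shift for TAGLN2, CNN3, TAGLN and TPM2, and in the opposite one for TPM1 and CNN2, with MYL9 at 0.04 (adjusted p = 0.4). For mutation 3 the calls went with the shift for TAGLN2, CNN3 and TAGLN, and against it for TPM1 and CNN2. The shift and these comparisons share wild-type replicates 2 and 3 as their base, so part of the likeness in direction is built in.

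Comparisons between mutants do not use the wild-type levels, although all groups share 1 estimate of spread. For mutation 1 over mutation 2, 8 of 10 genes were higher and 0 lower, where 31.8% of all genes were higher and 33.6% lower (65.4% in all). ACTA2 (0.58, adjusted p = 0.0549) and ACTN1 did not pass. ACTA2 did pass with RLE scaling (0.62, adjusted p = 0.0444) and with only those groups in the fit (0.58, adjusted p = 0.0275). It also passed without wild-type replicate 1, mutation 1 replicate 3 or mutation 2 replicate 3 (0.58, 0.76 and 0.74, adjusted p = 0.024, 0.022 and 0.0427), and in no other alternative. DESeq2 and limma-voom also called 0 lower. All 10 values were positive under TMM scaling, but CNN2 and ACTN1 turned negative under library totals alone, with 5 higher and 1 lower. The median was 0.55 for the 10 and -0.03 for all genes. For 8 of 10 members the mutation 1 and mutation 2 libraries held separate ranges, where this was so for 81.6% of all genes. The count of 8 fell to 5 without mutation 1 replicate 1 or 2 and to 4 without mutation 2 replicate 2, and was 9 without wild-type replicate 1.

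For mutation 1 over mutation 3, 6 of 10 were higher (TAGLN2, CNN2, CNN3, TPM1, MYL9, CALD1) and 1 was lower (ACTA2), where 20.2% of all genes were higher and 22.5% lower. The median was 0.31 for the 10 and -0.01 for all genes. Separate ranges of the libraries were seen for 8 of 10 members and 69.8% of all genes. In either direction 42.8% of all genes were called. The count of 6 fell to 3 without mutation 3 replicate 3, and without wild-type replicate 1 it was 7 higher and 2 lower. TAGLN and TPM2 did not pass, at -0.10 (SE 0.26, adjusted p = 0.781) and 0.15 (SE 0.24, adjusted p = 0.645). The TPM2 libraries of the groups did not overlap, and TPM2 was higher with mutation 1 without wild-type replicate 1 (0.15, adjusted p = 0.00877) and with only these groups in the fit (0.14, adjusted p = 0.0157). Library totals alone gave 4 higher and 2 lower.

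For mutation 3 over mutation 2, 3 of 10 were higher (ACTA2, TAGLN, TPM2) and 1 was lower (CALD1), where 25.7% of all genes were higher and 27.2% lower. The medians were 0.03 for the 10 and 0 for all genes. Library totals alone gave 2 higher and 2 lower, and upper quartile scaling gave 3 higher and 0 lower. The 3 that were higher include ACTA2 and TAGLN, the 2 members with the lowest levels, and 5 of the 10 values were positive. Separate ranges of the libraries were seen for 9 of 10 members and 75.9% of all genes, and 52.9% of all genes were called in either direction. Without wild-type replicate 1 the count was 5 higher and 3 lower. The lower count became 0 without mutation 2 replicate 1 or 2 or any 1 mutation 3 library.

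Summed over the 10 genes, the level was 2630 to 2700 CPM with mutation 1, 1840 to 1870 with mutation 2 and 1880 to 1920 with mutation 3, against 2516.1, 1797.5 and 1791.2 in the wild-type libraries. Most of the changes were under 2-fold. Of the calls over wild type in the fit of all libraries, TAGLN with mutation 2 and ACTA2 with mutation 3 alone reached 2-fold, and mutation 1 had none, where 35.1%, 9.49% and 24% of all genes were called at 2-fold or more with mutations 1, 2 and 3. Without wild-type replicate 1, TAGLN2 with mutation 1 reached it as well, at 2.4-fold (adjusted p = 2.45e-78). Between mutants, ACTA2 alone reached it, in mutation 1 over mutation 3 and in mutation 3 over mutation 2, where 14% and 18.8% of all genes did, and no member did for mutation 1 over mutation 2, where 32.7% did. The sum follows its most abundant members, TAGLN2 above all. An F test over the 4 groups called each of the 10, where it called 83% of all genes. In bulk RNA, fewer cells of a type and less RNA per cell cannot be told apart.

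Ratios between related genes differed among the groups, although both genes of each of the 3 pairs were higher with mutation 1 than with mutation 2. The ratio of TAGLN2 to TAGLN within a library was 208 to 235 with mutation 1, 185 to 280 with mutation 2 and 120 to 124 with mutation 3, against 241, 57.7 and 54.2 with wild type. The ratio of TPM2 to TPM1 was 0.636 to 0.837 with mutation 1, 0.532 to 0.595 with mutation 2 and 1.04 to 1.09 with mutation 3, against 0.188, 0.756 and 0.725 with wild type. TPM2 counts thus exceeded those of TPM1 in the mutation 3 libraries and in no other library. The ratio of CNN3 to CNN2 was 1.35 to 1.42, 1.25 to 1.3 and 1.26 to 1.32 with mutations 1, 2 and 3, against 1.04, 0.886 and 0.817 with wild type, so every mutant library was above every wild-type library. These are ratios of CPM, not per length, and the pairs were chosen as paralogs.

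**Figure D4:**
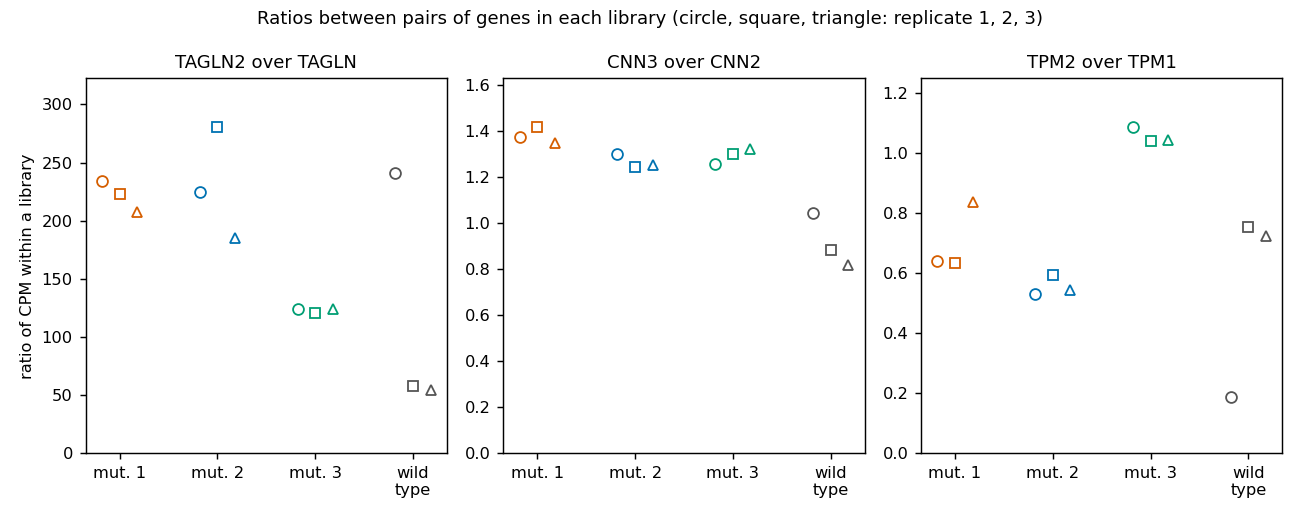
Ratio of CPM within each library (vertical axis, from 0) for TAGLN2 over TAGLN, CNN3 over CNN2 and TPM2 over TPM1, by group (mutation 1, mutation 2, mutation 3, wild type), with symbols for replicates 1, 2 and 3. CNN3 over CNN2 is above 1.2 in all mutant libraries and at most 1.04 with wild type, and wild-type replicate 1 differs from replicates 2 and 3 in each pair.

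The other structural genes of stress fibres formed a list of 36, all of which passed the filter. With mutation 1 over wild type, 17 rose and 8 fell (median 0.24). With mutation 2, 11 rose and 12 fell (median 0.01), and with mutation 3, 13 rose and 13 fell (median -0.09). Of all genes, 32.5%, 16.9% and 28.1% rose and 36.5%, 20.1% and 31.2% fell with mutations 1, 2 and 3, with medians of -0.04, -0.01 and -0.01. The counts were 23 and 12, 15 and 20, and 15 and 19 without wild-type replicate 1, where 40.2%, 33% and 38.2% of all genes rose and 42.5%, 34.9% and 38.8% fell, and under library totals alone mutation 3 gave 9 and 15. MYH9, the heavy chain of the main non-muscle myosin II, rose with all of the mutations, with means of 4711 ± 162, 2470 ± 93.9 and 3358 ± 43 CPM for mutations 1, 2 and 3 against 1927 ± 33.4 CPM for wild type (SD, n = 3 each). Its log2 fold changes for mutations 1, 2 and 3 were 1.29, 0.36 and 0.80, with adjusted p values of 1e-08, 0.000477 and 5.49e-07.

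Light chains and tropomyosins outside the 10 moved in both directions. MYL6, the essential light chain of myosin II, fell by 0.29, 1.13 and 0.99 on the log2 scale with mutations 1, 2 and 3 (adjusted p = 0.00343, 3.14e-06 and 9.13e-07). MYL12A and MYL12B, the other regulatory light chains of non-muscle myosin II, were named after their values were seen, and as close paralogs may share reads. MYL12A rose with mutations 1 and 3 (0.55 and 0.51, adjusted p = 0.000245 and 0.000558) and fell with mutation 2 (-0.26, adjusted p = 0.0437). MYL12B rose with mutation 1 (0.45, adjusted p = 0.0417), and gave 0.01 and 0.26 with mutations 2 and 3 (adjusted p = 0.975 and 0.231). TPM3 fell with mutation 1 (-0.99, adjusted p = 3.44e-08) and mutation 3 (-0.87, adjusted p = 1.96e-07), and gave -0.12 with mutation 2 (adjusted p = 0.0824). TPM4 rose with mutation 1 (0.17, adjusted p = 0.0126) and fell with mutations 2 and 3 (-0.55 and -0.46, adjusted p = 4.13e-05 and 2.65e-05).

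MYLK, the kinase that phosphorylates the light chain family of MYL9, rose with mutation 1 to 278.3 ± 3.5 CPM and with mutation 3 to 225.3 ± 1.11, and with mutation 2 to 115.3 ± 5.13, against 78.87 ± 6.43 CPM with wild type (SD, n = 3 each; adjusted p = 4.21e-09, 3.43e-08 and 0.000127).

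MRTFA, the actin-sensing cofactor of SRF, was 8.94 ± 0.712 CPM with mutation 1, 29.1 ± 0.441 with mutation 2 and 20.7 ± 0.512 with mutation 3, against 32.3 ± 0.957 CPM with wild type (SD, n = 3 each). It fell with mutation 1 (-1.85, adjusted p = 8.9e-09) and mutation 3 (-0.64, adjusted p = 2.12e-05). SRF itself gave -0.08 with mutation 1 (adjusted p = 0.349) and rose with mutations 2 and 3 (0.23 and 0.22, adjusted p = 0.0272 and 0.0201). Without wild-type replicate 1, the calls given here for MYH9, MYL6, MYL12A, MYL12B, TPM3, TPM4, MYLK, MRTFA and SRF kept their sign and passed again, and TPM3 and MRTFA with mutation 2 passed as well (-0.07 and -0.16, adjusted p = 0.0221 and 0.0309). So did MYL12B with mutations 2 and 3 (0.34 and 0.59, adjusted p = 7.47e-19 and 4.37e-38). These are levels of RNA, and the activity of these proteins was not analysed here.

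**Figure D5:**
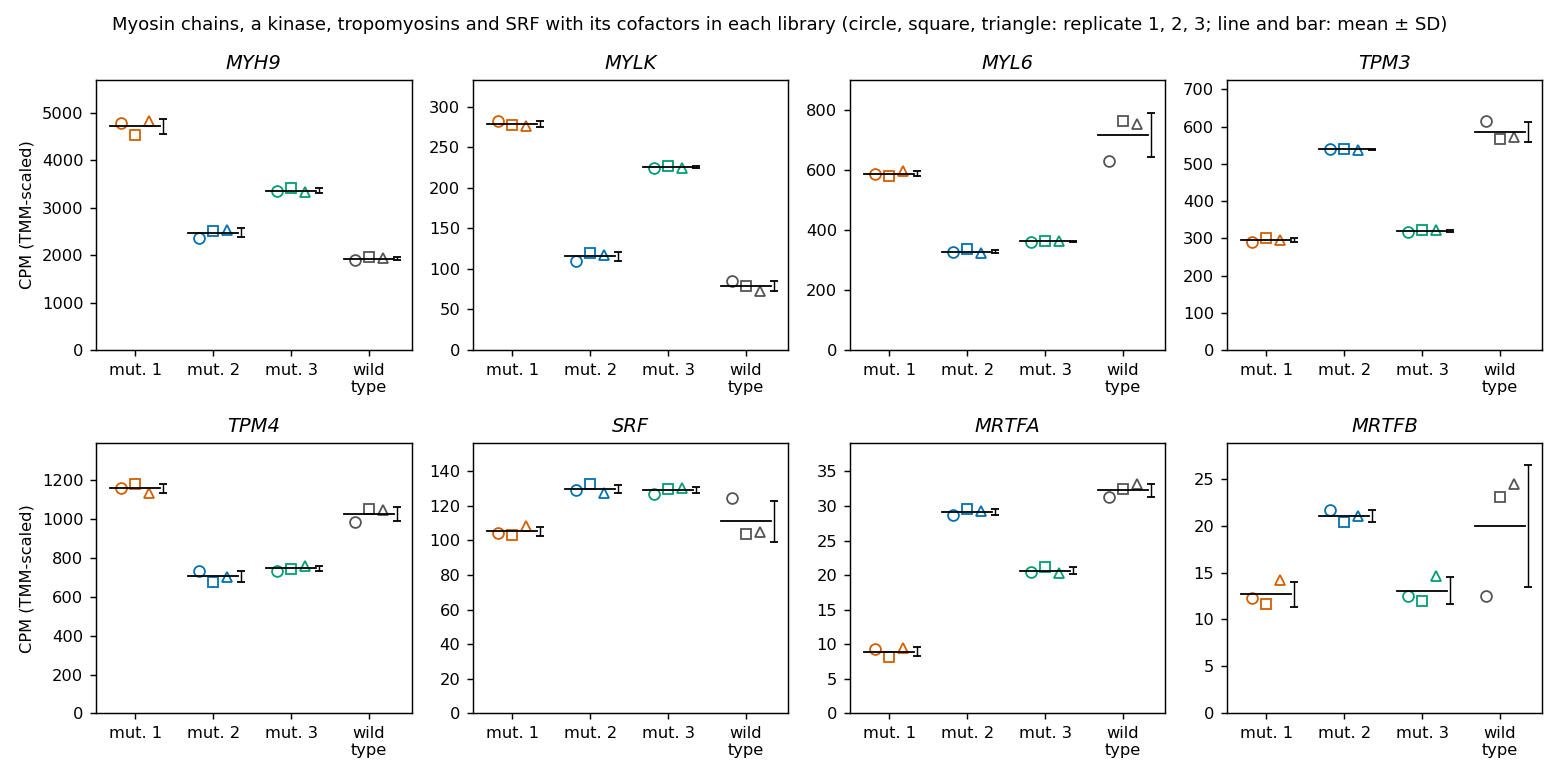
Level in CPM (vertical axis, from 0) of MYH9, MYLK, MYL6, TPM3, TPM4, SRF, MRTFA and MRTFB in each library by group (mutation 1, mutation 2, mutation 3, wild type), with symbols for replicates and lines with bars for the mean ± SD of 3 libraries. MYH9 and MYLK are highest with mutation 1, and MRTFA is lowest there, at 8.94 CPM on average.

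Among 12 genes linked to muscle, not all of them restricted to smooth muscle, most were nearly absent. SYNM was the only one to pass the filter. Its level was 26.1 ± 2.38 CPM with mutation 1, 44.3 ± 0.94 with mutation 2 and 37.6 ± 0.887 with mutation 3, against 33.3 ± 1.21 CPM with wild type (SD, n = 3 each). MYH11, KCNMB1, PLN and CASQ2 had 0 counts in every library, and MYOCD, the cofactor of SRF that drives the smooth muscle programme, had 1 count in 1 library. The summed level of 7 smooth muscle markers was 0.399 to 0.633 CPM with mutation 1, 0.454 to 1.34 with mutation 2 and 0.741 to 1.06 with mutation 3, against 0.67 to 1.31 with wild type.

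Markers of the cell line (VIM, CD44, KRT8, KRT18, MSN, AXL, FOSL1, CAV1) were expressed in every library. The summed level of 7 fibroblast markers moved with mutation 1, at 110 to 121 CPM, against 20.8 to 29 with mutation 2, 40.9 to 45.6 with mutation 3 and 23.4 to 39.6 with wild type. PDGFRB and COL1A1 were the most abundant of them. DCN was at 0 and PDGFRA, LUM and COL1A2 were near 0. COL3A1 went the other way, at 0 to 0.211 CPM with mutation 1 and 0.0704 to 7.11 with mutation 2, against 0.328 to 1.42 with wild type, and was lower with mutation 1 than with mutation 2 (-5.02, adjusted p = 0.0202), where replicates 1, 2 and 3 had 0.0704, 0.389 and 7.11 CPM. PDGFRB averaged 79.4 ± 4.75 CPM with mutation 1 against 9.10 ± 6.84 with wild type (SD, n = 3 each). The summed endothelial markers were at most 1.13 CPM in the mutant libraries and 3.08 to 18.5 with wild type, and the leukocyte markers at most 0.279 CPM in any library. The part of these markers in the levels of the 10 genes was not tested.

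For each member, the gene whose log2 level was most like it over the 12 libraries was sought among 10533 genes that averaged 5 CPM or more. The closest were EFEMP1 for TAGLN2 (Pearson r 0.998), C3 for CNN3 (0.995), RTF2 for ACTN1 (0.989), CHORDC1 for CALD1 (0.989), PPL for TPM2 (0.985) and TNFSF9 for MYL9 (0.984). CALM3 for CNN2 (0.977), JCAD for TPM1 (0.969), BCAS3 for TAGLN (0.96) and OSGIN1 for ACTA2 (0.957) followed. None of these 10 is itself a member, so no gene of the set had another member as its closest match. ACTA2 was under the 5 CPM limit and could not be a match. Some members were still much alike, with r of 0.95 for CNN2 and TPM1 and 0.94 for TAGLN2 and CNN3. Others were not, and the lowest value was -0.68, for CNN3 and ACTN1. The libraries of a group lie together, so such values describe the pattern over 4 groups more than over 12 independent points.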

How the data were processed

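RNA of 12 libraries was counted per gene, 3 libraries in each of 4 groups taken from the labels. The deposited files hold unnormalised counts of read pairs for 64252 Ensembl gene IDs. Per the file headers, featureCounts 2.0.6 made them, unstranded, by adding up the exons of each gene ID of an hg38 gene track, at a minimum mapping quality of 10, so reads of overlapping genes cannot be told apart and reads that fit several places are lost. Per the submitters' processing notes, STAR, SAMtools, DESeq2, cutadapt 1.9.1 and FastQC 0.11.8 were also used.

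From the counts, edgeR 4.0.16 (R 4.3.3) fitted 1 quasi-likelihood model to all 12 libraries with robust estimation, TMM scaling and filterByExpr (minimum count 10, minimum total 15), which kept 15094 genes, with 8 residual degrees of freedom and no covariates. Benjamini-Hochberg adjustment ran over all genes kept, two-sided, with calls at an adjusted p under 0.05, and all adjusted p values in the text are of this kind. The SE is the log2 fold change over the square root of its F value. Symbols, exon lengths and coordinates came from GENCODE v29 (GRCh38), promoters and microRNAs from RefSeq (GRCh38.p14). Promoter sequences matched 8 of the 10 members. The fits were tested on simulated counts. DESeq2 1.42.0 and limma 3.58.1 (voom), other scalings, filters and leaving out each library were alternatives.

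The members and the gene lists were chosen with earlier results of these data known. All 10 members are named. Of the lists, genes could be named if among the 4 called with the lowest adjusted p against wild type, or if set by name beforehand (MYH9, MYLK, TPM3, TPM4, SRF, MRTFA and others). Some listed genes and 1 gene list are not reported here. A count is worth 0.0559 to 0.0798 CPM, which limits the precision of ACTA2 and TAGLN.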

Additional observations from a re-analysis of the deposited data

How the results depend on the processing

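Of 60 member fold changes under 21 alternatives, 1134 kept their side of the threshold, 77 lost the call, 46 gained it and 3 reversed. A reversal is a change of sign where at least 1 of the fits made a call. The 1134 include changes of sign without a call in either fit. TPM1 with mutation 1 over wild type, for example, went from 0.04 to -0.18 under library totals alone. The reversals were TAGLN2 with mutation 2 over wild type without wild-type replicate 1 (0.43, in a range of -0.18 to 0.43 over the fits that leave out 1 library), and CNN2 (-0.01) and ACTN1 (-0.17) with mutation 1 over mutation 2 under library totals alone. That scaling moved the median of all genes by -0.21 for mutation 1 over wild type and over mutation 2, and by -0.12 for mutation 3 over wild type and over mutation 2, against 0.05 at most for the other scalings. Upper quartile scaling left 0 members lower for mutation 3 over mutation 2.

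Members called higher and lower were 4 and 1, 1 and 3, and 1 and 3 for mutations 1, 2 and 3 over wild type, 8 and 0 for mutation 1 over mutation 2, 6 and 1 for mutation 1 over mutation 3, and 3 and 1 for mutation 3 over mutation 2. Under library totals alone they were 3 and 3 for mutation 1 over wild type, 5 and 1 for mutation 1 over mutation 2, 4 and 2 for mutation 1 over mutation 3 and 2 and 2 for mutation 3 over mutation 2. Without a filter, 0 were higher for mutation 2 over wild type and 0 lower for mutation 3 over mutation 2. With only the groups compared in the fit, 2 were higher for mutation 1 over wild type, 0 higher for mutation 2 over wild type, 2 lower for mutation 1 over mutation 3, and 5 higher and 3 lower for mutation 3 over mutation 2. Asking also for a 2-fold change left 1 lower for mutation 2 over wild type (TAGLN), 1 higher for mutation 3 over wild type and for mutation 3 over mutation 2 (ACTA2), 1 lower for mutation 1 over mutation 3, and 0 in the other 8 counts. The cause was not tested, except that a 2-fold limit calls fewer by construction.

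Leaving out 1 library at a time gave 3 to 7 higher and 1 to 2 lower for mutation 1 over wild type, 0 to 3 and 2 to 5 for mutation 2, and 1 to 3 and 3 to 4 for mutation 3. It gave 4 to 9 higher and 0 lower for mutation 1 over mutation 2, 3 to 7 and 1 to 2 for mutation 1 over mutation 3, 2 to 5 and 0 to 3 for mutation 3 over mutation 2, and 9 to 10 called among the 4 groups. For mutation 2 over wild type the higher count was 0 without wild-type replicate 3 or mutation 2 replicate 1.

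Over all genes, mutation 2 over wild type had 2555 higher and 3033 lower, against 1223 and 1366 with only those groups in the fit and 5213 and 5513 without wild-type replicate 1. Mutation 1 over mutation 3 had 3053 higher and 3401 lower, against 4979 higher with only those groups and 5208 and 5313 without wild-type replicate 1. No paired analysis was possible because the mutant libraries carry no replicate numbers in the labels, and those used here follow sample order. The low counts of ACTA2 and TAGLN limit what can be seen for them.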
